A study of Homo sapiens with 2 samples.

Results

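The genes described here are XBP1 and 9 genes of the endoplasmic reticulum (ER) folding machinery, HSPA5, HSP90B1, DNAJC3, DNAJB9, PDIA4, PDIA6, SDF2L1, HERPUD1 and EDEM1, followed in HCT116 cells after knockdown of RAP1. They were taken by name, and the names were chosen with earlier results of these data known. Every probe set (a set of short probes reading 1 transcript region) annotated to 1 of these genes alone was used. This gave 36 probe sets for 10 genes, out of 10437 genes measured on the arrays, and no probe set named one of the 10 together with another gene. HCT116 is an established epithelial cell line from a colorectal carcinoma. It was infected for 72 h at a multiplicity of infection of 20 with 1 of 2 lentiviruses, carrying a negative-control shRNA (shNC) or the shRNA labelled sh-RAP1-4# (shRAP1). Both cultures were thus infected, no uninfected culture is part of the data, and 1 shRNA in 1 culture stands for the knockdown. Each group held 1 array, so no difference below has a test or a replicate check.

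Proteins that enter the ER are folded by chaperones, given disulfide bonds by protein disulfide isomerases, and sent to the proteasome by ER-associated degradation (ERAD) when folding fails. When unfolded protein builds up, the sensor IRE1 removes a short intron from XBP1 mRNA in the cytosol, which yields the active transcription factor, while the sensor ATF6 is cut in the Golgi to free another. Both factors act on ER stress response elements (ERSE) and related sites in promoters of chaperone and ERAD genes, and another sensor, PERK, slows translation and acts through ATF4. Secretory epithelium of the gut depends on this pathway. Arrays that read the 3′ end of transcripts sum both splice forms of XBP1, so splicing was not measured.

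The promoters of 6 of the 10 genes held an exact match to a published response element, and 4 held neither kind. Sequences of the matches are given first, apart from the signal. These elements are already known from promoters of chaperone and ERAD genes. The matches are therefore a description and not a finding of these data. The RefSeq promoter table (build GRCh38.p14, 250 bases before to 50 after each transcript start) held 13 entries that covered all 10 genes. The ERSE was searched as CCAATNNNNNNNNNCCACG on both strands, where N is any base, and was found in 27 of 35116 promoter entries (0.0769%). It lay in 1 promoter entry each of XBP1, HSPA5, PDIA6 and HSP90B1. The 200 bases before the start follow for 3 of these, XBP1, HSPA5 (both on the minus strand) and HSP90B1 (plus strand), written 5′ to 3′ along the gene with the fixed letters of each match in capitals.
XBP1, chr22:28800570-28800769: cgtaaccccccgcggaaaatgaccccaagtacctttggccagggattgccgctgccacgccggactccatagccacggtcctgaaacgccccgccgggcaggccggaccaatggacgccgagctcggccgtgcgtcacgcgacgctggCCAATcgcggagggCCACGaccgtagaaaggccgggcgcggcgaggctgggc
HSPA5, chr9:125241344-125241543: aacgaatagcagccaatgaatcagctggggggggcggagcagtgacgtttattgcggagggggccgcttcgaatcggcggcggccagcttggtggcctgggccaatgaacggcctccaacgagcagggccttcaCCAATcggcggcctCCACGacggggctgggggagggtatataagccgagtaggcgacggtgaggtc
HSP90B1, chr12:103930210-103930409: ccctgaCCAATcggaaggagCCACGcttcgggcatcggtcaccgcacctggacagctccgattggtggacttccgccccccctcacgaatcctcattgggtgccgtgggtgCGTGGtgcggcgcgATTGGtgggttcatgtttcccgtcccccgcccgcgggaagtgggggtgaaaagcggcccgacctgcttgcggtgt
The XBP1 match ran from 52 to 34 bases before the start and the HSPA5 match from 66 to 48. HSP90B1 had 2 matches, 1 along the gene from 194 to 176 bases before the start and 1 on the opposite strand from 89 to 71. The XBP1 gene carries in its own promoter the element on which its protein acts in other genes.

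A shorter relative, ERSE-II, was searched on both strands as ATTGG, then 1 base of any kind, then CCACG, and was found in 19 of 35116 entries (0.0541%), among them those of HERPUD1 and SDF2L1. The stretches below hold the elements of PDIA6 (ERSE), HERPUD1 and SDF2L1 (ERSE-II) with 20 bases on either side, so that the 2 kinds can be compared, and the fixed letters are in capitals. PDIA6 is on the minus strand, and HERPUD1 and SDF2L1 are on the plus strand. In SDF2L1 the element lies on the opposite strand and reads here as its reverse complement.
PDIA6, chr2:10812833-10812891: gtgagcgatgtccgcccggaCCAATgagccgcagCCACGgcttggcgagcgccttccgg
HERPUD1, chr16:56932005-56932055: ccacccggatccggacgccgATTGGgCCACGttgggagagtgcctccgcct
SDF2L1, chr22:21642094-21642144: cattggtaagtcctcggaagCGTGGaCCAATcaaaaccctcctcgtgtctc
Neither element was found in the windows of DNAJC3, DNAJB9, PDIA4 and EDEM1. DNAJB9 held 2 matches to the palindrome CACGTG, which occurs in 7.26% of entries and once each in those of HSP90B1 and HERPUD1. The DNAJB9 stretch with both matches (plus strand, capitals marking CACGTG) is shown because this letter run is the core of sites bound by many basic leucine zipper and helix-loop-helix factors.
DNAJB9, chr7:108569781-108569850: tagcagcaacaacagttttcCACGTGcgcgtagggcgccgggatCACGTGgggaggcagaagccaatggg
The site TGACGTGG was in 0.729% of entries and in none of the 13 of these genes. A match is a description of letters, and its absence from a window says nothing about a factor.

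All differences are shRAP1 minus shNC of log2 intensity. A gene counted as measured where a probe set reached the median intensity of the arrays (78.0, the floor, 6.29 on the log2 scale) on at least 1 of them, and its value is that of its brightest such probe set. All 10 genes were measured, and 29 of their 36 probe sets were past the floor. In the culture given shRAP1, 8 of the 10 genes stood lower and 2 higher, against 46.8% of all genes lower and 53.2% higher. The median difference of the 10 genes was −0.093, beside 0.010 over all 10437 genes. The differences ran from −0.39 for DNAJC3 to 0.088 for EDEM1. Counted at 1.2-fold, 3 of the 10 genes (DNAJC3, XBP1 and DNAJB9) were lower, where 3.58% of all genes were, and 0 were higher, where 4.96% of all genes were. DNAJB9 was just past this size, and the count was 2 under 4 of 6 other settings. None of the 10 reached 1.5-fold, a size at which 0.172% of all genes were lower and 0.211% higher, or 2-fold, at which 0.0192% were lower and 0.0192% higher. In a bulk culture, fewer cells with a transcript and less of it per cell cannot be told apart.

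**Figure D1:**
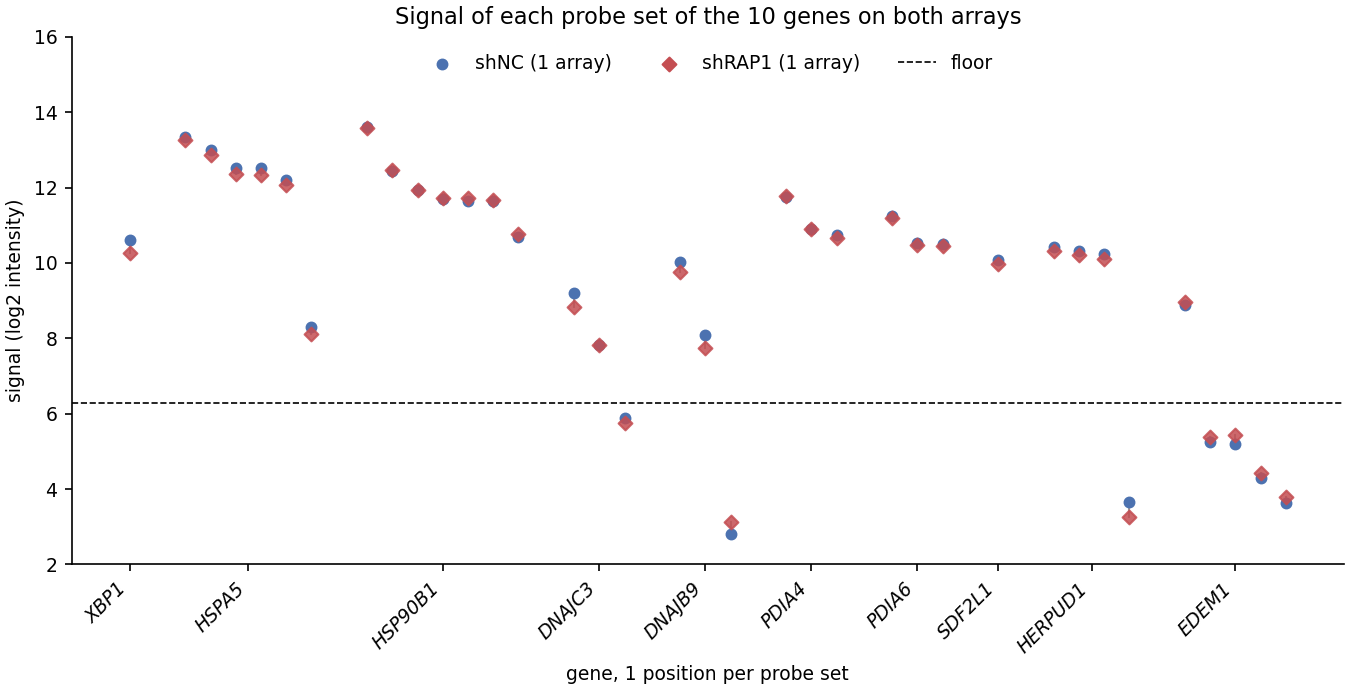
Log2 intensity of each of the 36 probe sets of the 10 genes on the shNC array (circles) and the shRAP1 array (diamonds), joined by a line, with the floor at 6.29 dashed. The 2 arrays differ visibly for XBP1, the upper DNAJC3 probe set and DNAJB9, and lie nearly on each other for HSP90B1 and PDIA4.

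XBP1, the transcription factor of the pathway, was read by 1 probe set. Its intensity was 1551 in shNC and 1223 in shRAP1, which is 78.8% of the control and a difference of −0.34 (10.60 and 10.26 on the log2 scale). This was the 150th lowest of 10437 differences. The 500 genes nearest to it in brightness differed with an SD of 0.15, and the XBP1 difference was −2.35 times that SD. This SD is taken over other genes, so it is no estimate of experimental error. With a single probe set, no second reading of XBP1 was to be had.

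HSPA5 (BiP, the ER Hsp70 chaperone that also binds the sensors) was read by 6 probe sets, all of them lower in shRAP1. The brightest went from 10435 in shNC to 9735 in shRAP1, 93.3% of the control, a difference of −0.10. The 6 differences ran from −0.19 to −0.10 with a median of −0.15 and an SD of 0.032 over probe sets. Of the 831 genes for which at least 5 probe sets passed the floor, 23.5% had all of them lower. Probe sets of a gene can share probes, and 2 of those of HSPA5 had the same difference to within 0.0001, so they are not 6 independent readings.

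HSP90B1 (GRP94, the ER Hsp90) did not move in 1 direction over its 7 probe sets. The brightest had 12505 in shNC and 12287 in shRAP1, a difference of −0.025, while the other 6 were higher by between 0.0096 and 0.084. The median of the 7 was 0.031, so whether the gene counts as lower rests on the choice of probe set. It was the member with the smallest difference in size but 1, and its 2 ERSE matches, shown above, were the most in any of the 10 promoters.

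The 3 co-factors of HSPA5 and its clients were all lower, by unequal amounts. DNAJC3 (p58IPK), a J-domain co-chaperone that hands clients to HSPA5, had the lowest difference of the 10 genes. Its brightest probe set went from 592 in shNC to 453 in shRAP1, 76.5% of the control, a difference of −0.39. The other DNAJC3 probe set past the floor gave 228 and 226, a difference of −0.013, and the last, below the floor, gave 58.8 and 54.4 (−0.11). The 2 probe sets past the floor thus lay 0.37 apart. Over the 6135 genes with at least 2 such probe sets the median distance was 0.13, and 6.23% of them lay as far apart or farther. The size of the DNAJC3 difference therefore depends on the probe set chosen.

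DNAJB9 (ERdj4), a J-domain protein that keeps IRE1 in check and aids ERAD, was lower on both probe sets past the floor. The brighter gave 1045 in shNC and 870 in shRAP1, 83.2% of the control and a difference of −0.26. The other gave 271 and 216, a difference of −0.33. The remaining DNAJB9 probe set, far below the floor, gave 7.04 and 8.81, a difference of 0.32 in the other direction. Both bright DNAJB9 probe sets have names with the suffix _s_at, used where probes may also hit other transcripts, so leaving such probe sets out left no value for this gene. SDF2L1, a luminal partner of J-domain proteins that keeps unfolded clients soluble, gave 1074 and 1011 on its 1 probe set, a difference of −0.087.

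The disulfide isomerases stayed close to the control. PDIA6, which also acts on the luminal domain of IRE1, was lower on each of 3 probe sets, by differences between −0.065 and −0.053. Its brightest probe set gave 2420 in shNC and 2333 in shRAP1. PDIA4 (ERp72) was the member nearest to 0 on its brightest probe set, at 3471 and 3516, a difference of 0.019. Its other probe sets differed by 0.0027 and −0.073. All 6 probe sets of the isomerases thus lay between −0.073 and 0.019.

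The 2 ERAD genes stood on opposite sides of the control. HERPUD1, a membrane protein that gathers the ubiquitin ligase complex for export of misfolded proteins, gave 1365 in shNC and 1264 in shRAP1, 92.6% of the control and a difference of −0.11. Its 3 probe sets past the floor differed by between −0.13 and −0.11, and 2 of them had the same value to within 0.0001. The fourth, far below the floor, gave 12.7 and 9.52 (−0.42). EDEM1, which helps to mark misfolded glycoproteins for degradation, gave 472 and 502, 106% of the control and a difference of 0.088. The 4 EDEM1 probe sets below the floor, at most 43.1 on either array, were higher as well, by between 0.11 and 0.23, where the signal is too dim to give a size. EDEM1 was the 1 member with every probe set higher.

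**Figure D2:**
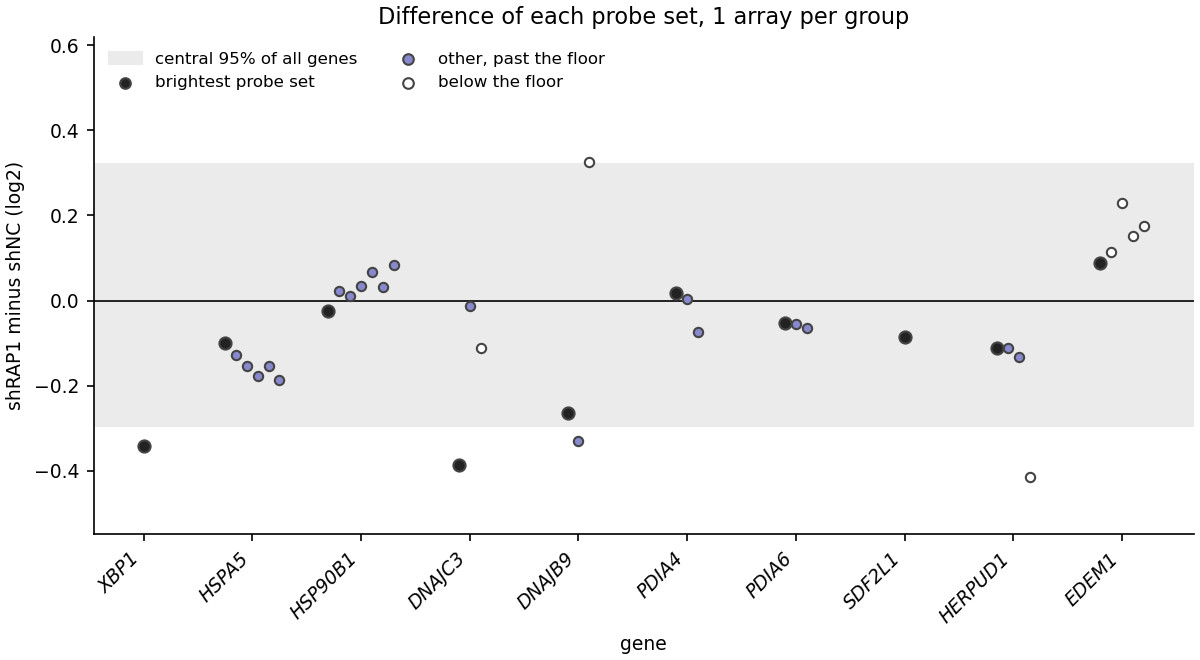
Difference shRAP1 minus shNC (log2) of each probe set of the 10 genes, black for the brightest, blue for others past the floor and open for those below it, with the central 95% of all genes (−0.29 to 0.32) in grey. The probe sets of HSPA5, PDIA6 and HERPUD1 past the floor lie together below 0, and those of DNAJC3 lie 0.37 apart. XBP1, the brightest DNAJC3 probe set, the dimmer DNAJB9 probe set past the floor and the dim HERPUD1 probe set lie below the grey band. The DNAJB9 probe set below the floor lies just above the band.

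Over all 29 probe sets of these genes past the floor, 20 were lower and 9 higher, and 50.6% of the 23141 such probe sets of the arrays were lower. Of the 10 genes, 7 had every probe set past the floor lower, 1 (EDEM1) every one higher, and 2 (HSP90B1 and PDIA4) had both signs. At least 2 probe sets passed the floor for 7 of the 10. Of these 7, 5 had all of them lower, where 31% of the 6135 such genes on the arrays did, and 2 had both signs, where 39.8% did.

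Genes of similar brightness to the 10 were themselves slightly lower in the median. Around HSPA5 and HSP90B1 the median difference of the 500 nearest genes was −0.018, around XBP1 −0.026 and around PDIA4 −0.030. It was −0.025 around PDIA6 and −0.023 around HERPUD1. Around DNAJB9, EDEM1, DNAJC3 and SDF2L1 it was smaller in size, at −0.0089, −0.0040, −0.0013 and −0.0003. Set against these medians, HSPA5 stood at −0.082, XBP1 at −0.32, HSP90B1 at −0.0076 and PDIA4 at 0.049. The part of brightness in the small differences was not tested further.

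**Figure D3:**
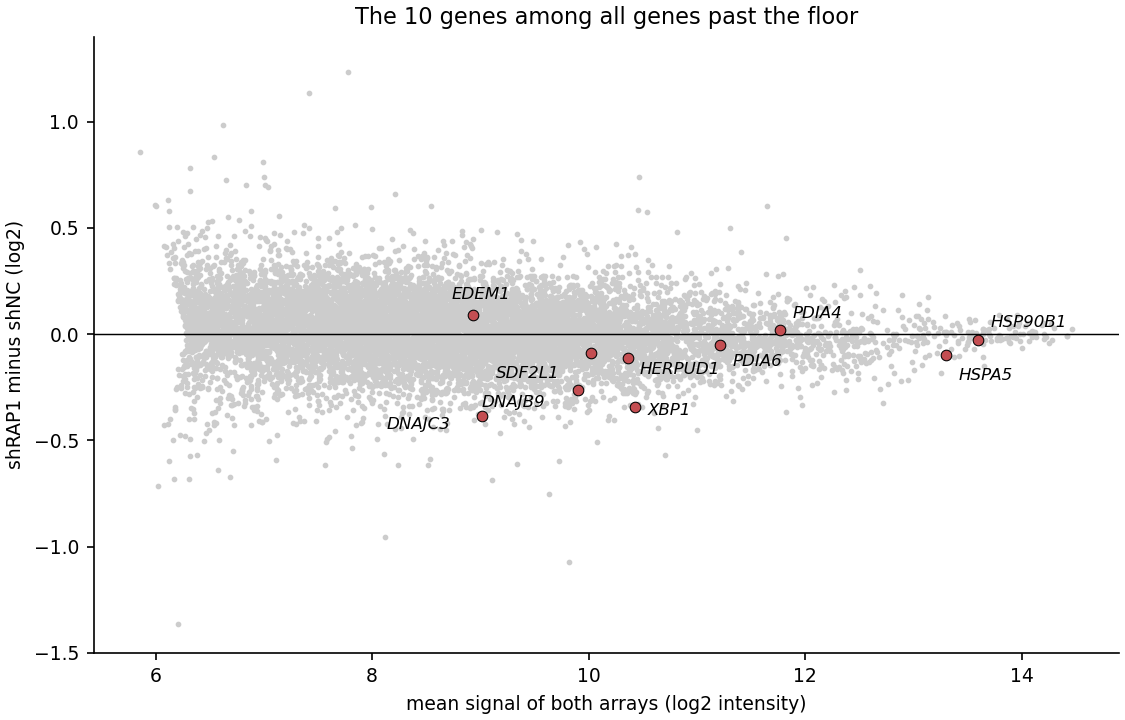
Difference shRAP1 minus shNC (log2) against mean log2 intensity for 10437 genes (grey), with the 10 genes in red. DNAJC3, XBP1 and DNAJB9 lie toward the lower edge of the cloud, and the other 7 lie between −0.11 and 0.088.

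The same promoter elements are found outside the 10 genes, which allows a view of their other carriers. Of 44 genes with an exact ERSE or ERSE-II, 28 were measured, and 17 of these were lower and 11 higher (median −0.024). Among all genes, 46.8% were lower and 53.2% higher. The 6 carriers among the 10 genes were all lower on their brightest probe set (median −0.093), HSP90B1 on that probe set alone. The 22 other carriers divided into 11 lower and 11 higher, with a median of 0.013. Among those other carriers are the lectin chaperones CALR (−0.18) and CANX (−0.035), the Hsp110-type chaperone HYOU1 (−0.055), CRELD2 (−0.0081) and the oxidase ERO1B (0.17). These are named because they are on the gene lists used below. Carriers on none of those lists include SERP1 (0.094), NUCB1 (0.076) and FICD (0.035), which were higher, and ALG12 (−0.023), which was lower. The ends of the range, named after their values were seen, were TRIM5, a restriction factor of retroviruses, at −0.29 and SYNPO, an actin-associated protein, at 0.46. The 4 of the 10 genes with neither element held both the lowest difference, DNAJC3, and the highest, EDEM1.

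**Figure D4:**
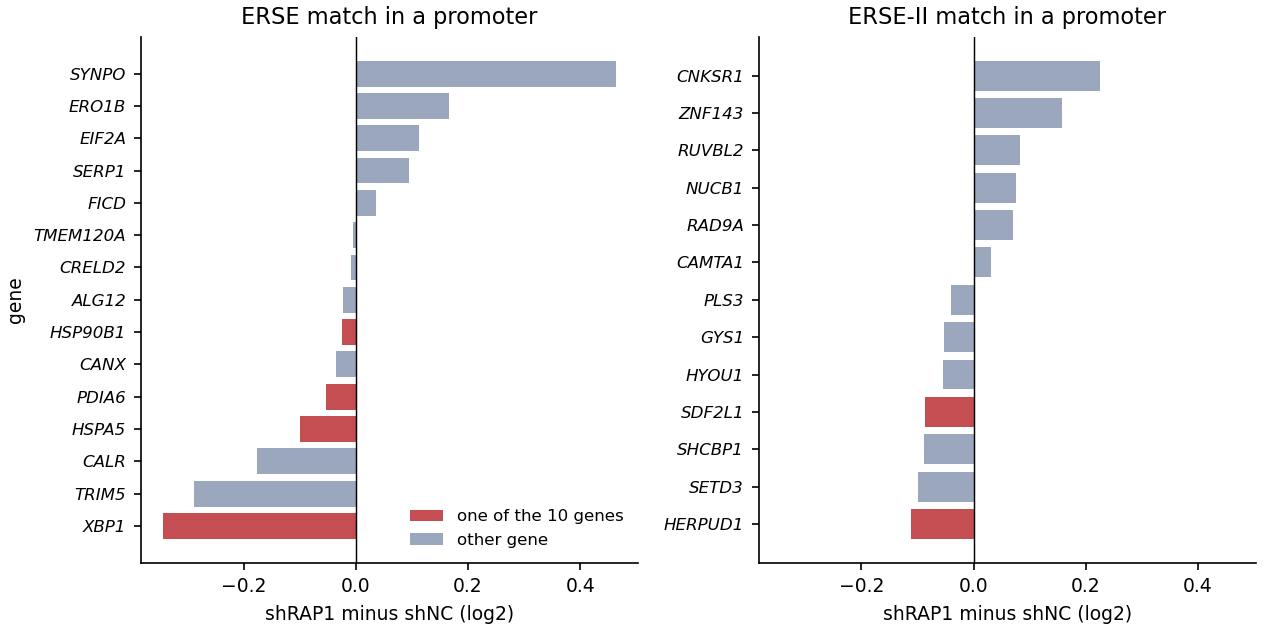
Difference shRAP1 minus shNC (log2) of each measured gene with an exact ERSE (left, 15 genes) or ERSE-II (right, 13 genes) in a promoter, red for those among the 10 genes. Bars start at 0, and the red bars all point to lower values while the grey bars point both ways.

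The measured sensors of unfolded protein, the proteases of ATF6 and the ligase of XBP1 mRNA were lower in shRAP1 on their brightest probe sets. IRE1, the sensor that acts on XBP1 mRNA, was not among them. ERN1, which encodes IRE1, was not measured, as its 2 probe sets gave 20.7 and 18.9 in shNC and 20.2 and 21.4 in shRAP1, all below the floor. EIF2AK3, which encodes PERK, was lower on all 3 probe sets, by between −0.36 and −0.23, and its brightest gave 499 and 426. ATF6 differed by −0.15 on its brightest probe set (414 and 373), with its other probe sets at −0.062 and 0.060. Its relative ATF6B differed by −0.14, and the proteases that cut both, MBTPS1 and MBTPS2, by −0.064 and −0.020. The second MBTPS1 probe set was at 0.29, from 409 to 500, so that gene had both signs. RTCB, the ligase that joins XBP1 mRNA after IRE1 has cut it, differed by −0.069, with 6 probe sets between −0.13 and 0.010. All 6 measured genes of this list were lower on their brightest probe set, where 46.8% of all genes were. Their median was −0.10, and none was at 1.2-fold, where 3.58% of all genes were lower.

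Most measured genes that bring proteins into the ER stood lower on their brightest probe set. Among 15 measured genes of translocation, signal peptidase and the translocon, 13 were lower and 2 higher. Over all genes, 46.8% were lower and 53.2% higher. The median of the 15 was −0.14, and 0 reached 1.2-fold, where 3.58% of all genes were lower and 4.96% higher. Set against the median of the 500 genes nearest in brightness to each, the median of the 15 was −0.12. SRP54, of the signal recognition particle, differed by −0.26, the receptor subunit SRPRB by −0.26, the channel subunit SEC61B by −0.24 and the translocon-associated SSR3 by −0.21 with its 4 probe sets between −0.23 and 0.12. The other lumen chaperones gave 11 lower and 4 higher of 15, beside the same shares of all genes. Their median was −0.035, or −0.020 when set against genes of similar brightness in the same way. In that list CALR differed by −0.18, SEC63 by −0.14, DNAJB11 by −0.11 and DNAJC10 by −0.10, the last with 5 probe sets past the floor from −0.48 to −0.10.

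The remaining secretory lists were divided, as were all genes, with 46.8% lower and 53.2% higher. Of 12 other disulfide isomerases and ER oxidases, 7 were lower and 5 higher (median −0.019). The oxidase ERO1A, which recharges the isomerases and is also a hypoxia-response gene, differed by −0.47 and −0.29 on its 2 probe sets, from 682 to 494 on the brighter. TXNDC11 was at −0.20, and PDIA5 and ERO1B were at 0.17 each. Of 17 other ERAD genes, 9 were lower and 8 higher (median −0.0058), with DERL2, of the export channel, at −0.24, the ubiquitin-conjugating enzyme UBE2G2 at 0.30, the mannosidase MAN1B1 at 0.18 and UFD1 at −0.14. Of 13 COPII coat and KDEL receptor genes, 6 were lower and 7 higher (median 0.0070), with the coat subunits SEC24D at −0.39, SEC23A at −0.28 and SAR1B at −0.21 and the receptor KDELR3 at 0.16. HERPUD1 and EDEM1, on opposite sides of the control, thus belong to an ERAD group that was itself divided.

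Of 5 measured transcripts that are reported to be cut by IRE1 itself, 1 was lower and 4 higher, beside 46.8% and 53.2% of all genes. The median of the 5 was 0.15, and 0.054 on the 3 genes left with the floor at the 75th percentile. BLOC1S1, a subunit of a lysosome-positioning complex, differed by −0.32, from 441 to 353. COL6A1 was at 0.15 with all 4 probe sets past the floor higher. HGSNAT and SPARC, at 0.17 and 0.27, were near the floor, and the shNC value of SPARC was below it. The 500 genes nearest in brightness to HGSNAT and to SPARC were themselves higher in the median, by 0.054 and 0.070.

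**Figure D5:**
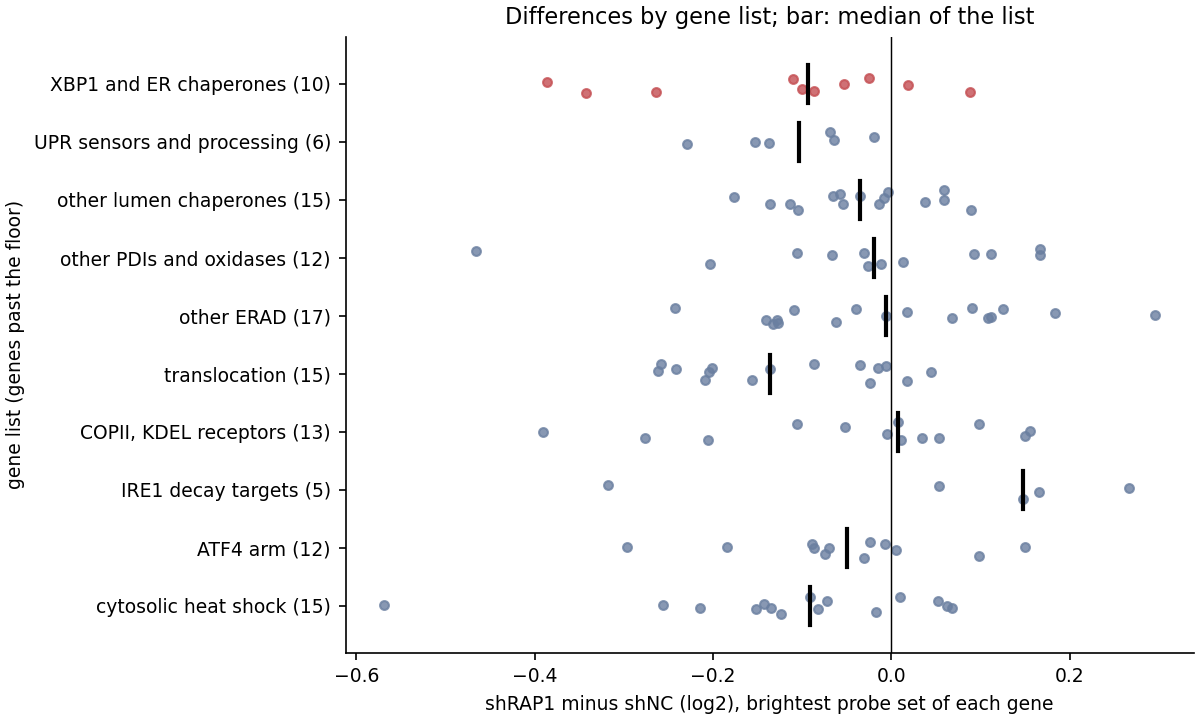
Difference shRAP1 minus shNC (log2) of each measured gene by list, with the median of a list as a bar and the number of genes in brackets. Medians lie at −0.14 for translocation, at −0.093 for XBP1 and the ER chaperones, and between −0.035 and 0.0070 for the other lumen chaperones, isomerases, ERAD and COPII lists.

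Related stress programmes that are not part of the 10 genes were also lower in the median. As a baseline, 46.8% of the 10437 genes lay below the control and 53.2% above it. Their median difference was 0.010. The ATF4 arm gave 9 lower and 3 higher of 12 measured genes and a median of −0.050, and among them ATF3 was at −0.30, ASNS at −0.18, TRIB3 at 0.15 and PPP1R15A at 0.098. The list of heat shock chaperones, mostly cytosolic, gave 11 lower and 4 higher of 15, with a median of −0.091. In it CHORDC1 was at −0.57, HSP90AA1 at −0.26, DNAJB1 at −0.21 and DNAJA1 at −0.15. It also holds the mitochondrial chaperones HSPA9, HSPD1 and HSPE1, at −0.091, −0.14 and −0.073. These lists share their 2 arrays with the 10 genes, and no difference between lists was tested.

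The name RAP1 fits TERF2IP, a telomere protein, and the GTPase genes RAP1A and RAP1B, and the shRAP1 signal was 47.6%, 88.0% and 93.3% of the control for them in that order. Counted from the lowest of 10437 differences, TERF2IP, read by 1 probe set, ranked 2, RAP1A 930 and RAP1B 2184. Epithelial markers were past the floor for 6 of 6 genes, with summed intensities of 31860 in shNC and 32705 in shRAP1. No leukocyte, goblet cell or fibroblast marker with a probe set of its own reached the floor, nor did the plasma cell genes MZB1 and CD38. SDC1 and JCHAIN of the plasma cell list and VWF and KDR of the endothelial list did, and SDC1 is also made by epithelium. Spiked-in polyadenylated control transcripts, which are added before labelling, differed between the arrays by as much as the largest differences of the 10 genes. The 6 probe sets each of dap, lys and phe were lower, with medians of −0.30, −0.41 and −0.29, and the 6 of thr were higher, with a median of 0.41. The 18 probe sets of hybridisation controls, added after labelling, lay between −0.087 and 0.095. The differences of XBP1, DNAJC3 and DNAJB9 lay well outside the range of the hybridisation controls, and all 10 genes lay inside that of the spiked transcripts, −0.59 to 0.48. The low end came from lys, whose probe sets were dim (mean log2 5.91 to 6.83), in part below the floor. The lowest value was −0.40 for phe (6.59 to 7.84) and −0.38 for dap (8.52 to 10.50), beside −0.39 for DNAJC3. The part of labelling in these differences was not tested.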

How the data were processed

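Total RNA of 1 culture per group was labelled from its 3′ end and hybridised to 1 array, per the labels' protocols. The authors deposited intensity values per probe set on a linear scale, made with RMA per the submitters' processing notes. Not given in the sources used here are its version, the arrays normalised together and the genome build. RMA as usually run includes a normalisation between arrays, which makes differences relative to other genes. The non-control medians were 77.0 in shNC and 78.9 in shRAP1, and 2 arrays limit the precision.

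Log2 was taken without a pseudocount. A single gene symbol belonged to 44988 of the 49293 probe sets that are not controls. The floor, the higher of both values at the median of all values, left 10437 genes. All probe sets of the 10 genes are given, singly or as a range, with TERF2IP, RAP1A, RAP1B, all sensors and up to 4 genes of the largest difference in size from each of the other 8 pathway lists. The members and lists were chosen with earlier results of these data known. Alternatives changed the gene summary, the floor, the probe sets, the centring (lowess, span 0.3), the pseudocount and the size counted. Python 3.11.15, numpy 2.4.6, pandas 2.3.3, statsmodels 0.14.6 and matplotlib 3.10.9 were used. On simulated data with 200 genes planted at 1 on the log2 scale, all 200 signs came back. This size is well above the differences of the 10 genes, so the check does not cover signs at their size. Proteins were not used here.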

Additional observations from a re-analysis of the deposited data

How the results depend on the processing

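The median of the 10 genes stayed between −0.099 and −0.080 under the 6 alternatives run. The count of 8 lower at any size was 7 of 10 with the median of all probe sets. Without probe sets with the suffix _x_at or _s_at it was 6 of 9, and elsewhere it stayed at 8. The count of 3 lower at 1.2-fold became 0 at 2-fold. It was 2 under 4 of the 6 alternatives: DNAJB9, just past this size at −0.26, was at −0.257 with lowess centring, at −0.256 with the pseudocount, and had no value without its _s_at probe sets, while DNAJC3 dropped out with the median of all probe sets. HSP90B1 turned to 0.031 with the median of all probe sets and to 0.067 when probe sets with the suffix _x_at or _s_at were left out, and DNAJC3 went to −0.20 with the median of all probe sets. Lists near 0 changed sign: isomerases and oxidases to 0.034 and COPII with KDEL receptors to −0.026 without such probe sets, COPII also to −0.029 with the median of all probe sets, and ERAD to 0.00042 with lowess centring. The median of IRE1 decay targets, 0.15 on 5 genes, was 0.054 on 3 genes with the floor at the 75th percentile. The translocation median ranged from −0.14 to −0.088. No paired analysis was possible because each group holds 1 array. Leaving out a replicate was likewise not possible. With 1 array per group, differences of the size seen here cannot be told apart from variation between cultures or labelling reactions.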
